A study of Mus musculus with 4 samples.

Results

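The genes described here are 8 genes of MHC class I: H2-K1, H2-D1, B2m, H2-Q4, H2-Q6, H2-Q7, H2-T22 and H2-T23. They were taken by symbol from the 25636 genes that the count matrices list, and were chosen with earlier results of these data known. Nuclei from the kidney of female mice were profiled by droplet-based 3′ RNA sequencing, and the design text names the renal cortex as the part taken. There were 4 groups, MRL/lpr at 6 weeks, C57BL/6 at 6 weeks, MRL/lpr at 10 weeks and C57BL/6 at 10 weeks, with 1 library each. In MRL/lpr mice the lpr mutation disrupts Fas, which encodes a receptor that triggers cell death, and nephritis resembling lupus develops. MRL mice without the mutation were not in the design, so the Fas mutation, other strain differences and disease cannot be told apart. The labels name no treatment, and the number of mice behind a library is not given in the sources used here. With 1 library per group no difference has a replicate check and no test was run. Intervals are exact 95% intervals and cover counting error only.

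MHC class I molecules show peptides from inside the cell to CD8 T cells. Each consists of a heavy chain and the light chain β2-microglobulin, encoded by B2m, and nearly every nucleated cell makes them. H2-K1 and H2-D1 encode classical heavy chains. The Q and T regions hold non-classical ones: H2-Q6 and H2-Q7 belong to the genes of the Qa-2 antigen, and H2-T23 encodes Qa-1, a ligand of the NKG2A receptor. Interferons raise class I transcription, through Nlrc5 and Irf1 among others.

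All 8 gene IDs matched GENCODE mouse release M21, where each gene is protein coding. In GRCm38, H2-K1 lies at chr17:33996017-34000347 on the minus strand and H2-D1 at chr17:35262730-35267499 on the plus strand. The Q genes follow on the plus strand, H2-Q4 at chr17:35379617-35385290, H2-Q6 at chr17:35424850-35430055 and H2-Q7 at chr17:35439155-35443773. On the minus strand lie H2-T23 at chr17:36029773-36032855 and H2-T22 at chr17:36037128-36042747. B2m is on another chromosome, at chr2:122147686-122153083 on the plus strand.

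The 5 promoter windows below are shown because their sequences are alike. Among these genes, the largest strain ratios in podocytes, described further down, are those of H2-Q6 and H2-Q7. Each window runs from 250 bases before to 50 bases after the gene start, from RefSeq (GRCm38.p6), which is the C57BL/6 sequence. For H2-D1 the window lies inside the gene as placed above, so the start used differs from that of GENCODE. Capitals mark matches, on either strand, to GGGGATTCC, an NF-kB-like motif, or to GAANNGAAA, an interferon response-like motif. The windows are chr17:34000298-34000597 on the minus strand for H2-K1 and, on the plus strand, chr17:35262844-35263143 for H2-D1, chr17:35379367-35379666 for H2-Q4, chr17:35424600-35424899 for H2-Q6 and chr17:35438905-35439204 for H2-Q7.
H2-K1: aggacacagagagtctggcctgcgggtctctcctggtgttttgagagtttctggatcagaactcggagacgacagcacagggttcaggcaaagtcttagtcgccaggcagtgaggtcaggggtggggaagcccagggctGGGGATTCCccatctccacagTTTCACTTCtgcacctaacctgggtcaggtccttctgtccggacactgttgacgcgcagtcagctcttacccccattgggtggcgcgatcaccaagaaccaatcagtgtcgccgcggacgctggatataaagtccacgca
H2-D1: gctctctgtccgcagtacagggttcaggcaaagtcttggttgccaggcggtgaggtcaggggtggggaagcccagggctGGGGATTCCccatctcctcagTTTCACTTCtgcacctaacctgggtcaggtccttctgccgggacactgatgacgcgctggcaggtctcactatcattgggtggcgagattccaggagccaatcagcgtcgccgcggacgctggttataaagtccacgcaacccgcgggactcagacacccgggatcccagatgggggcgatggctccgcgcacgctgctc
H2-Q4: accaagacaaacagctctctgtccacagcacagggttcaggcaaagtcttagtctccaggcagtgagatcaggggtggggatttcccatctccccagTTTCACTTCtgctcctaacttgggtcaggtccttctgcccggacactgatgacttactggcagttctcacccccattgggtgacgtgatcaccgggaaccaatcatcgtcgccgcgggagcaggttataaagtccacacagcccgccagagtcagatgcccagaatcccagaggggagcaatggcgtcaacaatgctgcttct
H2-Q6: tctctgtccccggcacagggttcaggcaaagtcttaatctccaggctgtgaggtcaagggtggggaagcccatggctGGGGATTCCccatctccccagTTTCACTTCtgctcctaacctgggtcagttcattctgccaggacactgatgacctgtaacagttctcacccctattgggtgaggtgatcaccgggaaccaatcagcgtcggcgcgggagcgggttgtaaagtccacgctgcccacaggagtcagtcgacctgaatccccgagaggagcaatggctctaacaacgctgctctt
H2-Q7: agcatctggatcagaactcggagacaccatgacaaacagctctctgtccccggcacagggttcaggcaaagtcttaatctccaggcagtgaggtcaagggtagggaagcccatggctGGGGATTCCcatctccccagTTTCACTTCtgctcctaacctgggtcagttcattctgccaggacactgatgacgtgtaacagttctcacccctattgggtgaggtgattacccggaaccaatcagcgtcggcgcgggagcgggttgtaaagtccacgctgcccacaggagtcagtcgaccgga
The NF-kB-like letters were in the windows of 4 of the 8 members, H2-K1, H2-D1, H2-Q6 and H2-Q7, and in 0.25% of the 32851 promoter windows in the table. The interferon response-like letters were in 5 of the 8 members, those shown, and in 7.52% of all windows. The windows of B2m, H2-T22 and H2-T23 held neither. The 2 matches did not overlap. The windows of H2-Q6 and H2-Q7 were 97.3% identical over 261 aligned bases, and those of H2-K1 and H2-D1 90.4% over 228. A match describes these letters and shows no binding, and the MRL sequence was not analysed here.

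The 4 matrices list 9365 to 10182 barcodes each, and 35692 of all 39074 were kept. Kept nuclei had medians of 561 to 693 UMIs (unique molecular identifiers, a count of captured RNA molecules). Library pairs shared 112 to 143 barcodes. Classes were set from raw UMIs of 101 marker genes, and 9 classes with at least 40 nuclei in every library were compared. No class had a marker of another class among its 10 leading genes. The proximal tubule class also had none of its own there, so it rests on its marker rule. Levels are given as CPM, UMIs scaled to a class total of 1000000 in that library. Fas itself had 212 UMIs in MRL/lpr against 175 in C57BL/6 at 6 weeks, and 184 against 128 at 10 weeks. The counts do not show where in the gene these molecules lie relative to the mutation, so they do not check the genotype.

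MRL/lpr podocytes, the filtering cells of the glomerulus, were almost without H2-Q6 and H2-Q7 UMIs, while in C57BL/6 these cells had the highest level of both genes. H2-Q7 had 2 UMIs in MRL/lpr podocytes against 289 in C57BL/6 podocytes at 6 weeks, and 1 against 370 at 10 weeks. As levels these were 36.4 CPM (4.41 to 132) in MRL/lpr and 3768 CPM (3346 to 4228) in C57BL/6 at 6 weeks, and 10.4 CPM (0.264 to 58.1) in MRL/lpr and 3623 CPM (3263 to 4011) in C57BL/6 at 10 weeks. The strains stood far apart at each age, with log2 ratios of MRL/lpr over C57BL/6 of −6.69 (−9.75 to −4.83) at 6 weeks and −8.44 (−13.7 to −5.95) at 10 weeks.

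H2-Q6 followed the same course. Its UMIs in podocytes numbered 0 in MRL/lpr and 146 in C57BL/6 at 6 weeks, and 1 in MRL/lpr and 190 in C57BL/6 at 10 weeks. With the count of 0 set at 3 UMIs, the number that a 0 allows, MRL/lpr at 6 weeks was at least 34.9-fold lower. At 10 weeks it was 179-fold lower (31.7 to 7089). Of 1148 genes compared in podocytes, H2-Q7 had the lowest strain ratio at both ages. H2-Q6 was the second lowest at 10 weeks. Its place at 6 weeks rests on the bound, which put it the third lowest. Genes entered this comparison by a minimum of UMIs summed over the libraries. H2-Q6 and H2-Q7 reached it through the C57BL/6 libraries, where they are high. Their places among these genes are therefore a description and support nothing.

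The same difference was seen per nucleus. Of the podocyte nuclei, 2 of 101 in MRL/lpr (1.98%, 0.241 to 6.97) and 147 of 166 in C57BL/6 (88.6%, 82.7 to 93.0) had a UMI of H2-Q6 or H2-Q7 at 6 weeks. At 10 weeks these were 2 of 152 in MRL/lpr (1.32%, 0.160 to 4.67) and 184 of 212 in C57BL/6 (86.8%, 81.5 to 91.0). Median UMIs per podocyte nucleus were no lower in MRL/lpr: 511 in MRL/lpr and 435 in C57BL/6 at 6 weeks, and 605.5 in MRL/lpr and 446 in C57BL/6 at 10 weeks. Proximal tubule nuclei of C57BL/6, which are deeper (medians of 847 and 808.5 UMIs), had H2-Q7 in 0.721% at 6 weeks and 1.11% at 10 weeks. After thinning each nucleus to 250 UMIs, H2-Q7 was seen in 0.990% of MRL/lpr and 61.4% of C57BL/6 podocytes at 6 weeks, and in 0 of 152 MRL/lpr (up to 2.40%) and 58.6% of C57BL/6 podocytes at 10 weeks. Single C57BL/6 podocyte nuclei held up to 7 UMIs of H2-Q7, and no MRL/lpr podocyte held more than 1. With at least 500 genes required per nucleus, 17 MRL/lpr and 9 C57BL/6 podocytes were left at 6 weeks and 52 and 18 at 10 weeks, and the log2 ratios of H2-Q7 were −3.54 and −5.55.

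**Figure D1:**
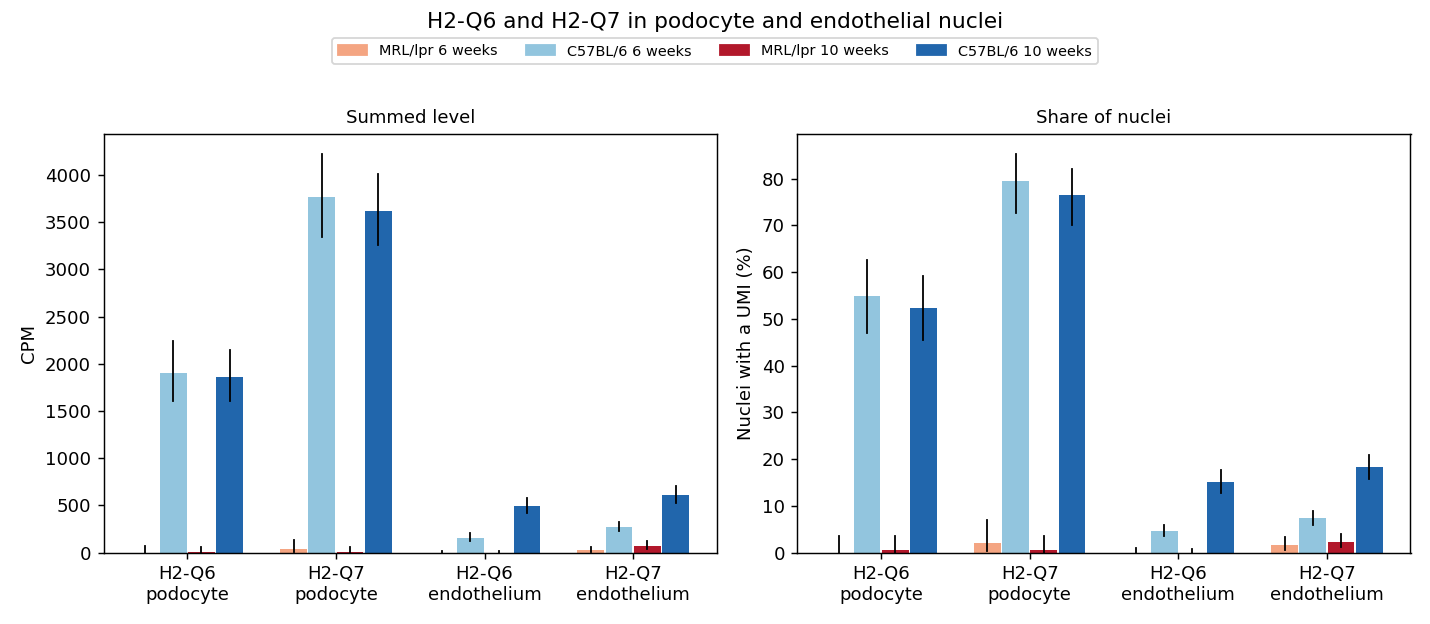
H2-Q6 and H2-Q7 in podocyte and endothelial nuclei of 4 libraries. Left, level in CPM; right, share of nuclei with a UMI in percent; bars give the value of 1 library and black lines its exact 95% interval. H2-Q7 stood at 3768 and 3623 CPM in C57BL/6 podocytes, where the MRL/lpr bars are at 36.4 and 10.4 CPM.

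Within C57BL/6 the podocyte level of H2-Q7 was 13.8-fold that of endothelium at 6 weeks (11.1 to 17.4) and 5.92-fold at 10 weeks (4.94 to 7.11). Against the proximal tubule it was 441-fold and 271-fold at those ages. H2-Q6 gave 11.9-fold over endothelium at 6 weeks and 3.76-fold at 10 weeks. The endothelial level of H2-Q7 in C57BL/6 was 612 CPM at 10 weeks and 272 CPM at 6 weeks, while podocyte levels at these ages had overlapping intervals. The share of H2-Q6 in the UMIs of both genes was 33.6% and 33.9% in C57BL/6 podocytes at 6 and 10 weeks. In C57BL/6 endothelium it was 36.9% at 6 weeks and 44.7% at 10 weeks (39.2 to 50.2), where the podocyte interval at 10 weeks was 30.0 to 38.0.

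Endothelium showed the strain difference too, at a lower level. Endothelial H2-Q6 had 0 UMIs in MRL/lpr against 65 in C57BL/6 at 6 weeks, and 0 against 147 at 10 weeks, which makes it at least 11.3-fold lower at 6 weeks and at least 29.3-fold lower at 10 weeks. Endothelial H2-Q7 had 6 UMIs in MRL/lpr against 111 in C57BL/6 at 6 weeks, and 12 against 182 at 10 weeks. In C57BL/6 endothelium H2-Q7 was at 7.23% of its podocyte level at 6 weeks and 16.9% at 10 weeks. The summed level of 6 podocyte genes outside the marker rule, chosen after the data were seen, was there 1.72% and 1.96% of that in podocytes. In the proximal tubule H2-Q7 had 1 UMI in MRL/lpr against 28 in C57BL/6 at 6 weeks, and 8 against 44 at 10 weeks. The C57BL/6 levels were 0.227% and 0.369% of those in podocytes, beside 0.623% and 0.567% for the 6 podocyte genes, or 0.349% and 0.218% for the 5 without Rhpn1, which has most of their proximal tubule UMIs. H2-Q6 in the C57BL/6 proximal tubule was at 0.272% of its podocyte level at 6 weeks and 0.490% at 10 weeks. The part of podocyte RNA in these levels was not tested. H2-Q7 and H2-Q6 are therefore not read as expression or as a strain difference of the proximal tubule. Over all kept nuclei H2-Q7 had 15 UMIs in MRL/lpr against 465 in C57BL/6 at 6 weeks, and 35 against 725 at 10 weeks, so a few UMIs remained in MRL/lpr.

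In the 4 classes where all genes were compared, the members at least 2-fold apart between strains in the same direction at both ages were H2-Q6 and H2-Q7. This was so for 2 of 8 members compared in the proximal tubule, 2 of 8 in endothelium and 2 of 6 in podocytes, and for 0 of 4 in macrophages, all lower in MRL/lpr. Both genes reached the minimum of 50 UMIs mainly through the C57BL/6 libraries, where they are high, so these counts describe the members and support nothing. Of all genes compared, 1.78% were at least 2-fold lower at both ages in the proximal tubule, 1.21% in endothelium, 3.66% in podocytes and 2.8% in macrophages. Among the members compared, none was at least 2-fold higher at both ages in these 4 classes. The share of all genes that were higher in that way was 2.46% in the proximal tubule, 0.9% in endothelium, 2.96% in podocytes and 3.85% in macrophages.

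How these strain ratios should be read depends on the haplotype. C57BL/6 mice carry the H-2b haplotype, from which the mouse reference is made, and MRL mice carry H-2k; some strains of that haplotype, such as CBA, lack Qa-2. Reads of a k-haplotype gene that differ from the reference, or of a gene it lacks, may be counted elsewhere or not at all, and this was not tested. Windows of 90 bases were taken from the last 400 bases of transcripts. Reads from introns, if they were counted, would lie elsewhere. Of these windows, 0% of those of H2-Q7, H2-D1 and B2m and 0.177% of those of H2-K1 occur in a transcript of another gene. The shares were 12.5% for H2-Q4, 16.1% for H2-T23, 32.2% for H2-Q6 and 33.5% for H2-T22. Genes sharing windows of H2-Q6 include H2-Q7, H2-D1 and H2-K1, and those of H2-T22 were all shared with H2-T10. By this measure alone, values of H2-Q6 and H2-T22 are less certain than those of the others. With the UMIs of H2-Q4, H2-Q6 and H2-Q7 summed, the log2 strain ratios were −5.49 and −3.90 in podocytes, −0.65 and −0.98 in endothelium and −0.45 and −0.21 in the proximal tubule, at 6 and 10 weeks.

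The other 6 members were present in both strains and were highest in endothelium in all 4 libraries. H2-K1 stood at 2627 CPM (2414 to 2854) in MRL/lpr and 1764 CPM (1638 to 1898) in C57BL/6 endothelium at 6 weeks, and at 3818 CPM (3536 to 4116) in MRL/lpr and 3201 CPM (3001 to 3411) in C57BL/6 at 10 weeks. H2-D1 had 3772 CPM in MRL/lpr and 3131 CPM in C57BL/6 endothelium at 6 weeks, and 4746 CPM in MRL/lpr and 4627 CPM in C57BL/6 at 10 weeks. The C57BL/6 library at 6 weeks was the lowest of the 4 for both genes. Macrophages, which also present antigen through class II molecules, came second for H2-K1, with 1439 CPM in MRL/lpr and 1015 in C57BL/6 at 6 weeks, and 2109 in MRL/lpr and 2632 in C57BL/6 at 10 weeks. Podocytes were the third in each library for H2-K1. Macrophages had H2-D1 at 2370 CPM in MRL/lpr against 4236 CPM in C57BL/6 at 10 weeks, a log2 ratio of −0.84 (−1.21 to −0.47), and at 1780 CPM in MRL/lpr against 1973 CPM in C57BL/6 at 6 weeks, a ratio of −0.15 (−0.81 to 0.53). Of macrophage nuclei, 14.0% in MRL/lpr and 0 of 43 in C57BL/6 at 6 weeks, and 8.93% in MRL/lpr and 1.16% in C57BL/6 at 10 weeks, had 3 or more proximal tubule markers. Without them the log2 ratio of H2-D1 at 10 weeks was −0.74, and with at least 500 genes per nucleus, which leaves 17 nuclei in MRL/lpr and 7 in C57BL/6, it was −0.08. This class was small, with 43 nuclei in each strain at 6 weeks and 112 in MRL/lpr and 86 in C57BL/6 at 10 weeks. In C57BL/6 at 10 weeks the intervals of endothelium and macrophages overlapped for H2-K1 and H2-D1; in the other 3 libraries endothelium stood clear for both. B2m and H2-T23 were clear of the next class in all 4 libraries, H2-Q4 in 2 and H2-T22 in 1.

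For H2-K1 the proximal tubule was the lowest class in 3 libraries and the intercalated cells in MRL/lpr at 6 weeks. H2-K1 in the proximal tubule, the segment that takes back most filtered solutes, was 67.5 CPM in MRL/lpr and 65.2 CPM in C57BL/6 at 6 weeks, and 87.5 CPM in MRL/lpr and 162 CPM in C57BL/6 at 10 weeks. Endothelium exceeded it 38.9-fold and 27.0-fold in MRL/lpr and C57BL/6 at 6 weeks, and 43.7-fold and 19.8-fold at 10 weeks. For H2-D1 this fold lay between 40.4 and 45.5 in all 4 libraries, and for H2-T22 between 6.39 and 7.43. Over the whole order of the 9 classes, 5 to 6 of the 8 neighbouring pairs per library had overlapping intervals for H2-K1 and H2-D1, and 3 to 5 for B2m.

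B2m had another order of classes than H2-K1. In endothelium it stood at 6854 CPM in MRL/lpr and 5077 CPM in C57BL/6 at 6 weeks, and 7298 CPM in MRL/lpr and 6847 CPM in C57BL/6 at 10 weeks. Fibroblasts, not podocytes, were the third after endothelium and macrophages, with 2391 CPM in MRL/lpr and 858 CPM in C57BL/6 at 6 weeks, and 1893 CPM in MRL/lpr and 981 CPM in C57BL/6 at 10 weeks. The proximal tubule stood above every other tubule class, at 671 CPM in MRL/lpr and 233 CPM in C57BL/6 at 6 weeks, and 504 CPM in MRL/lpr and 530 CPM in C57BL/6 at 10 weeks. The thick ascending limb, for comparison, had 229 CPM in MRL/lpr and 93.8 CPM in C57BL/6 at 6 weeks, and 266 CPM in MRL/lpr and 145 CPM in C57BL/6 at 10 weeks. Since proximal tubule nuclei are so numerous, they held 48.3% of all B2m UMIs in MRL/lpr and 21.7% in C57BL/6 at 6 weeks, and 45.3% in MRL/lpr and 35.5% in C57BL/6 at 10 weeks.

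Free RNA can put endothelial transcripts into other nuclei. The level of 10 endothelial genes outside the marker rule was taken as a guide to this. Any expression of the 10 genes by the other nuclei themselves is counted too and cannot be told apart. The summed level of the 10 genes in the proximal tubule was 0.491% to 0.898% of that in endothelium, over the 4 libraries. H2-K1 there was 2.29% to 5.06% of its endothelial level and B2m 4.58% to 9.79%. In podocytes the 10 genes were at 1.10% to 1.34% of endothelium, H2-K1 at 14.8% to 39.5% and H2-D1 at 17.5% to 49.2%. The podocyte values of the 10 genes rest on 2 UMIs in MRL/lpr and 4 in C57BL/6 at 6 weeks. At 10 weeks these were 6 in MRL/lpr and 5 in C57BL/6, so the range is uncertain. The part of free RNA in the class I levels was not tested further.

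**Figure D2:**
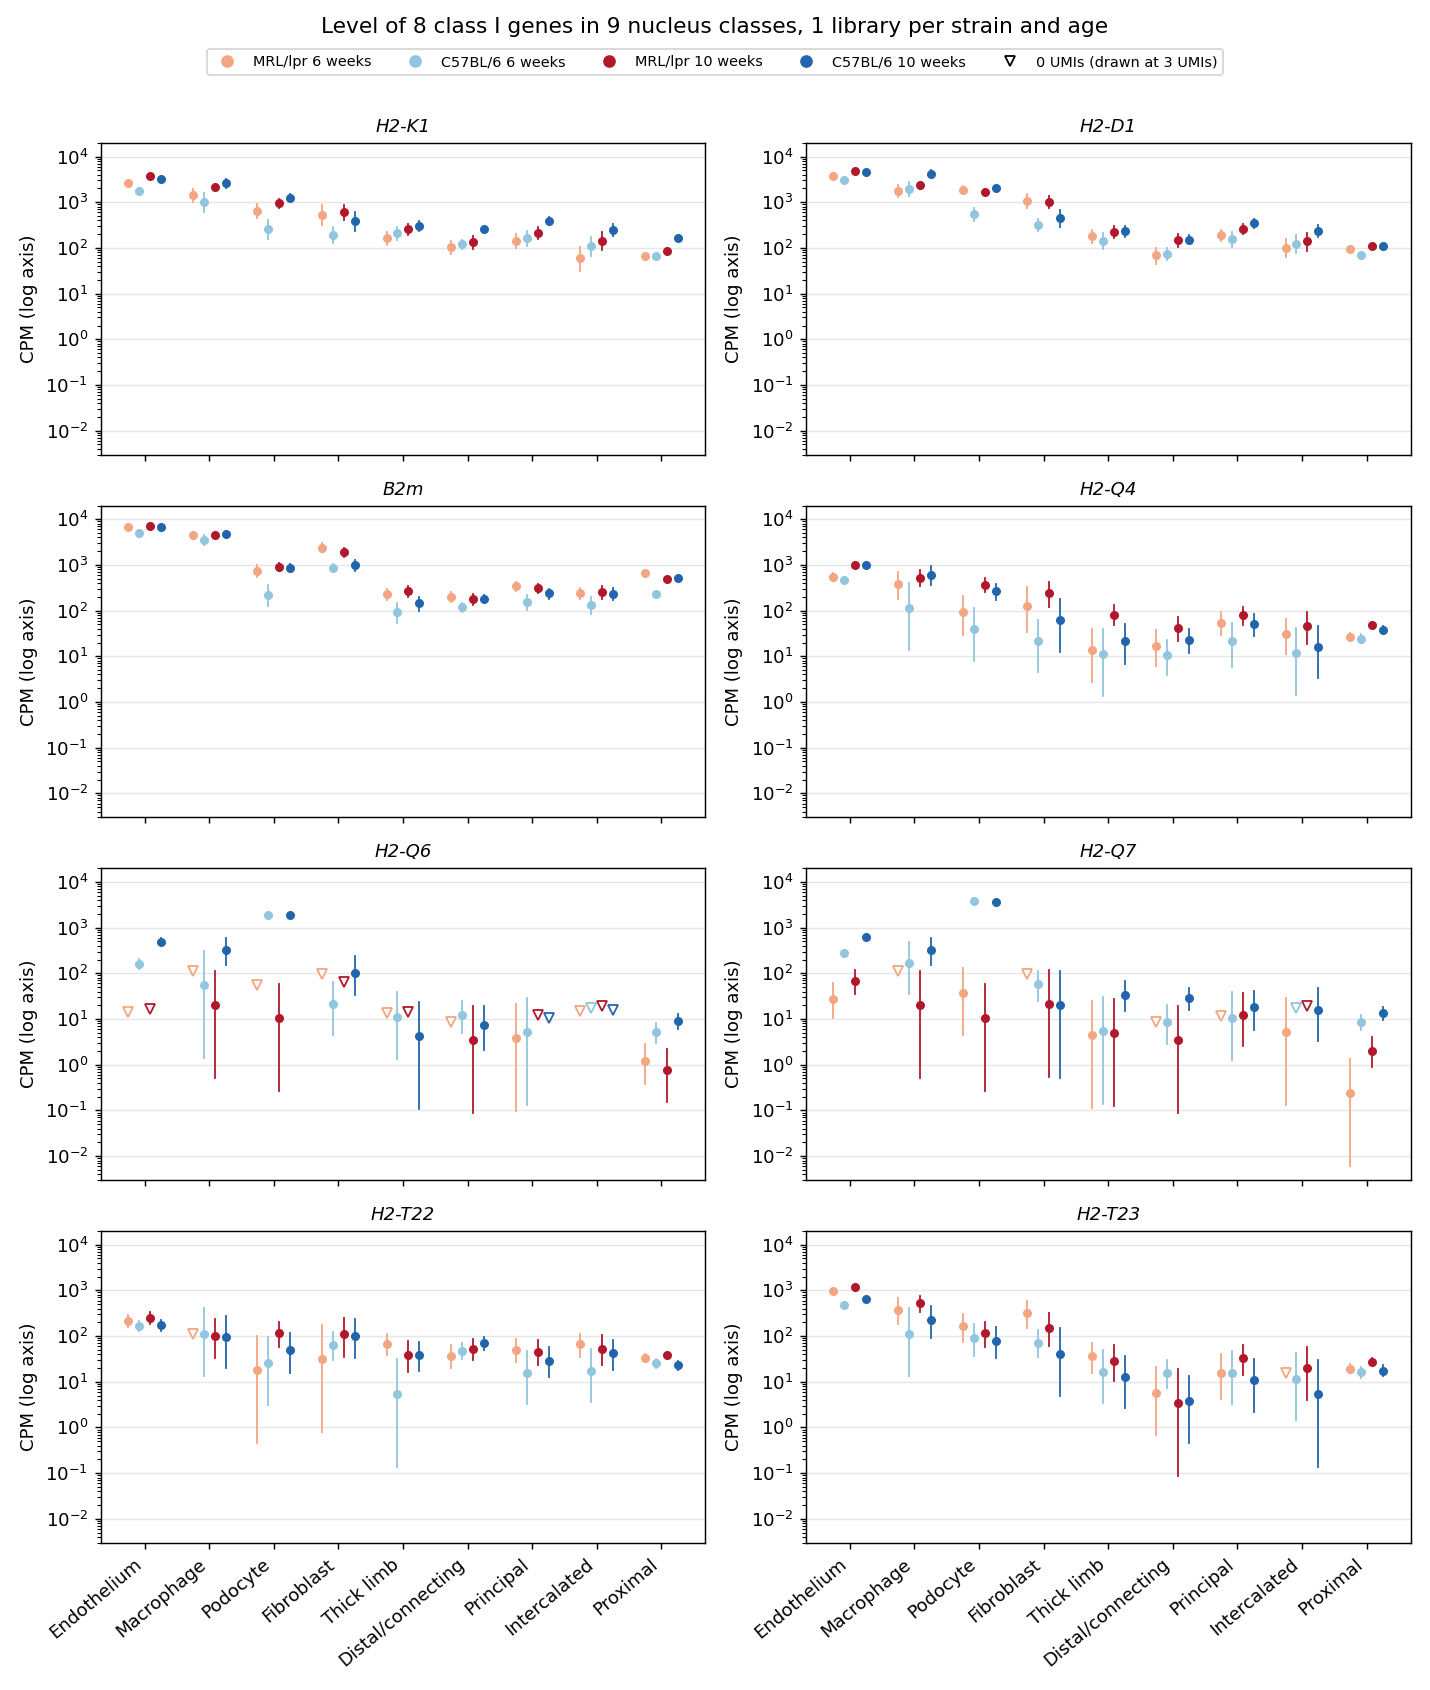
Level of the 8 genes in 9 nucleus classes, in CPM on a log axis; each point is 1 library, with its exact 95% interval, and open triangles mark 0 UMIs, drawn at the CPM of 3 UMIs. H2-K1 and B2m peak in endothelium in all 4 libraries, and H2-Q6 and H2-Q7 peak in C57BL/6 podocytes.

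Between strains, B2m was higher in MRL/lpr at 6 weeks in 9 of 9 classes, with an interval above 0 in 8, and this was not so at 10 weeks. The log2 strain ratio at 6 weeks was 1.53 (1.41 to 1.65) in the proximal tubule, 1.75 (0.90 to 2.66) in podocytes and 0.43 (0.34 to 0.53) in endothelium. At 10 weeks it was −0.07 (−0.17 to 0.02), 0.07 (−0.37 to 0.52) and 0.09 (−0.01 to 0.19) in those classes, each with 0 inside its interval. At 10 weeks 6 of 9 classes had a higher level in MRL/lpr, 2 of them, fibroblasts and thick ascending limb, with an interval above 0. In the proximal tubule at 6 weeks, 235 of 11780 genes compared had a strain ratio as high as that of B2m or higher.

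H2-K1 and H2-D1 were higher in MRL/lpr podocytes at 6 weeks and not at 10 weeks. H2-D1 had 102 UMIs and 1857 CPM in MRL/lpr against 42 UMIs and 548 CPM in C57BL/6 podocytes at 6 weeks, a log2 ratio of 1.76 (1.23 to 2.32). At 10 weeks it had 163 UMIs and 1698 CPM in MRL/lpr against 210 UMIs and 2056 CPM in C57BL/6, a log2 ratio of −0.28 (−0.58 to 0.03). The C57BL/6 library at 6 weeks was the low value of the 4. H2-K1 gave log2 ratios of 1.33 (0.50 to 2.20) at 6 weeks and −0.41 (−0.82 to −0.02) at 10 weeks, with 36 UMIs in MRL/lpr and 20 in C57BL/6 podocytes at 6 weeks. These podocyte values rest on 101 to 212 nuclei per library.

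In the proximal tubule H2-K1 did not differ between strains beyond counting error at 6 weeks (log2 0.05, −0.21 to 0.31) and was lower in MRL/lpr at 10 weeks (log2 −0.89, −1.09 to −0.69). Its share in the UMIs of H2-K1 and H2-D1 together, a measure that does not depend on scaling, was 44.5% (41.0 to 48.1) in MRL/lpr against 59.6% (56.3 to 62.8) in C57BL/6 at 10 weeks. At 6 weeks that share was 41.9% (38.2 to 45.8) in MRL/lpr and 48.6% (43.9 to 53.4) in C57BL/6, intervals that overlap. H2-D1 in the proximal tubule had log2 strain ratios of 0.44 (0.20 to 0.68) at 6 weeks and −0.01 (−0.22 to 0.20) at 10 weeks. Collecting duct principal cells and the distal and connecting tubule also had lower H2-K1 in MRL/lpr at 10 weeks, with log2 ratios of −0.84 and −0.94. In endothelium the sign was the other way, 0.25 (0.11 to 0.40). Allele sequence could enter each of these strain ratios, and its part was not tested.

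Fibroblasts had higher H2-D1 and B2m in MRL/lpr at both ages. The log2 ratios of H2-D1 were 1.75 (1.06 to 2.43) at 6 weeks and 1.19 (0.43 to 1.99) at 10 weeks, from 34 UMIs in MRL/lpr against 44 in C57BL/6 at 6 weeks and 47 against 22 at 10 weeks. Those of B2m were 1.48 and 0.95. The fibroblast class held 74 nuclei in MRL/lpr and 385 in C57BL/6 at 6 weeks, and 121 in MRL/lpr and 133 in C57BL/6 at 10 weeks, so the UMI totals are small.

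H2-T23, the Qa-1 gene, had a higher level in MRL/lpr endothelium at both ages, and so did H2-K1 by a smaller ratio. It had 209 UMIs and 980 CPM in MRL/lpr against 196 UMIs and 481 CPM in C57BL/6 endothelium at 6 weeks, and 207 UMIs and 1164 CPM against 189 UMIs and 636 CPM at 10 weeks. The MRL/lpr value was higher at each age, with log2 ratios of 1.03 (0.74 to 1.32) and 0.87 (0.58 to 1.17). The second falls short of 2-fold. H2-T23 was seen in 37.8% of MRL/lpr and 13.2% of C57BL/6 endothelial nuclei at 6 weeks, and in 30.0% of MRL/lpr and 19.4% of C57BL/6 at 10 weeks. After thinning to 250 UMIs these shares were 26.2% and 11.3% at 6 weeks and 24.7% and 13.8% at 10 weeks, with MRL/lpr above C57BL/6 at both ages.

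H2-Q4, the Q-region gene that both strains had, did not differ between them beyond counting error in endothelium. It stood there at 549 CPM in MRL/lpr and 476 CPM in C57BL/6 at 6 weeks, and at 995 CPM in MRL/lpr and 985 CPM in C57BL/6 at 10 weeks, log2 ratios of 0.21 (−0.14 to 0.54) and 0.01 (−0.26 to 0.29). H2-T22 had 216 CPM in MRL/lpr and 164 CPM in C57BL/6 endothelium at 6 weeks, and 253 CPM in MRL/lpr and 172 CPM in C57BL/6 at 10 weeks, with both intervals of the ratio reaching below 0. Over classes, H2-Q4 was higher in MRL/lpr in 8 of 8 with a ratio at 6 weeks, none with its interval above 0, and in 8 of 9 at 10 weeks, 3 with its interval above 0. In the proximal tubule the log2 ratios of H2-T22 were 0.42 (0.02 to 0.83) at 6 weeks and 0.73 (0.32 to 1.15) at 10 weeks.

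The nuclei behind the endothelial values differ between libraries. In MRL/lpr at 6 weeks 15.3% of 386 endothelial nuclei also had UMIs of 3 or more proximal tubule markers, against 0.994% to 1.85% in the other 3 libraries. Without such nuclei, the endothelial log2 strain ratios at 6 weeks were 1.03 for H2-K1, 0.64 for H2-D1, 0.81 for B2m and 1.47 for H2-T23, against 0.57, 0.27, 0.43 and 1.03 with them. The direction was the same and the size larger for all 4 genes.

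**Figure D3:**
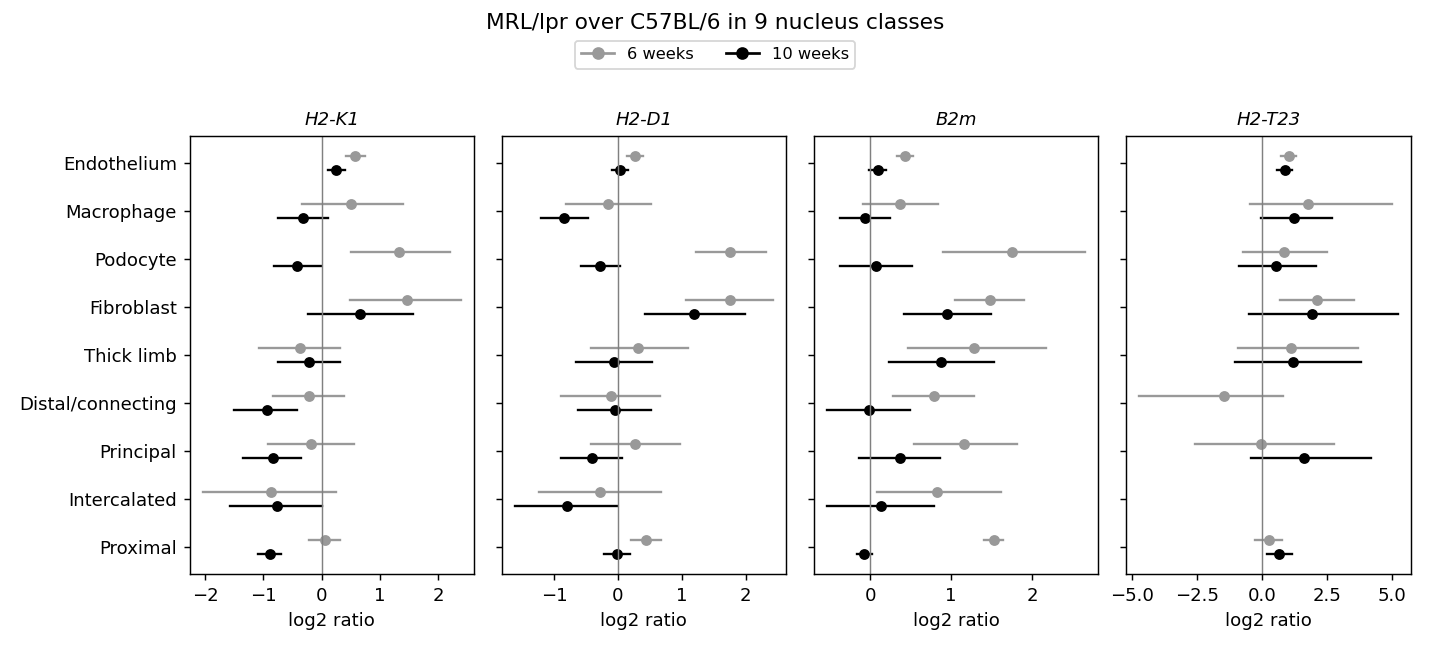
Log2 ratio of MRL/lpr over C57BL/6 in 9 nucleus classes at 6 and 10 weeks, with 95% intervals for counting error only; a class with too few UMIs has no point, and the horizontal scales differ between panels. B2m lies above 0 in all 9 classes at 6 weeks and near 0 in the proximal tubule, podocytes and endothelium at 10 weeks.

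Set beside all genes, the members had a higher median in endothelium at both ages. In the proximal tubule and podocytes this was so only at 6 weeks. The members' median log2 strain ratio in the proximal tubule was 0.18 at 6 weeks and −0.04 at 10 weeks, beside −0.02 and 0.07 over all genes compared. In endothelium it was 0.33 and 0.06, beside −0.07 and −0.05. Over the 6 members compared in podocytes it was 1.27 at 6 weeks and −0.34 at 10 weeks, beside 0.02 and 0.00 over all genes.

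With age, H2-K1 was higher at 10 than at 6 weeks in 9 of 9 classes in MRL/lpr and in 9 of 9 in C57BL/6. Its intervals lay above 0 in 5 classes in MRL/lpr and in 8 in C57BL/6, and the median log2 ratio over classes was 0.54 in MRL/lpr and 1.14 in C57BL/6. H2-D1 was higher at 10 weeks in 7 of 9 classes in MRL/lpr and 9 of 9 in C57BL/6. H2-Q4 was higher in 9 of 9 classes in MRL/lpr and in 7 of 7 with a ratio in C57BL/6. Age and library cannot be told apart, since each age of a strain is 1 library.

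B2m went its own way. In the proximal tubule it was lower at 10 than at 6 weeks in MRL/lpr, by a log2 ratio of −0.41 (−0.50 to −0.33), and higher in C57BL/6, by 1.19 (1.07 to 1.31). Across classes it was higher at 10 weeks in 4 of 9 in MRL/lpr and in 9 of 9 in C57BL/6. Heavy-chain UMIs per B2m UMI in the proximal tubule, over the 7 heavy-chain members, were 0.625 at 10 weeks and 0.360 at 6 weeks in MRL/lpr, and 0.703 at 10 weeks and 0.919 at 6 weeks in C57BL/6.

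Podocytes of C57BL/6 had the largest age ratios of H2-K1, H2-D1 and B2m among the 9 classes. Their log2 ratios of 10 over 6 weeks were 2.28 (1.59 to 3.03), 1.91 (1.43 to 2.42) and 1.98 (1.22 to 2.82). In MRL/lpr podocytes the same ratios were 0.53 (−0.04 to 1.13), −0.13 (−0.49 to 0.24) and 0.30 (−0.25 to 0.87), each with 0 inside its interval. H2-Q6 and H2-Q7 in the same C57BL/6 podocytes had ratios of −0.03 (−0.35 to 0.29) and −0.06 (−0.28 to 0.17). H2-Q4 in podocytes had 35 UMIs at 10 weeks and 5 at 6 weeks in MRL/lpr, and 27 at 10 weeks and 3 at 6 weeks in C57BL/6.

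Members higher at 10 weeks in both strains, whatever the size, numbered 5 of 8 in the proximal tubule, 7 of 8 in endothelium and 3 of 6 in podocytes. Among all genes compared this was so for 24.6% in the proximal tubule, 23.1% in endothelium and 30.0% in podocytes. The 5 members in the proximal tubule were H2-K1, H2-D1, H2-Q4, H2-Q7 and H2-T23. The part of podocyte RNA in the H2-Q7 level of that class was not tested, and H2-Q7 is not read as expression there. The median age ratios of the members in endothelium were 0.33 in MRL/lpr and 0.71 in C57BL/6 on the log2 scale, beside 0.00 and −0.01 over all genes. Leaving out nuclei with 3 or more proximal tubule markers brought the endothelial count to 4 members, H2-K1, H2-D1, H2-Q4 and H2-Q7. The MRL/lpr age ratios there were then 0.13 for H2-K1, 0.00 for H2-D1 and −0.26 for B2m.

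**Figure D4:**
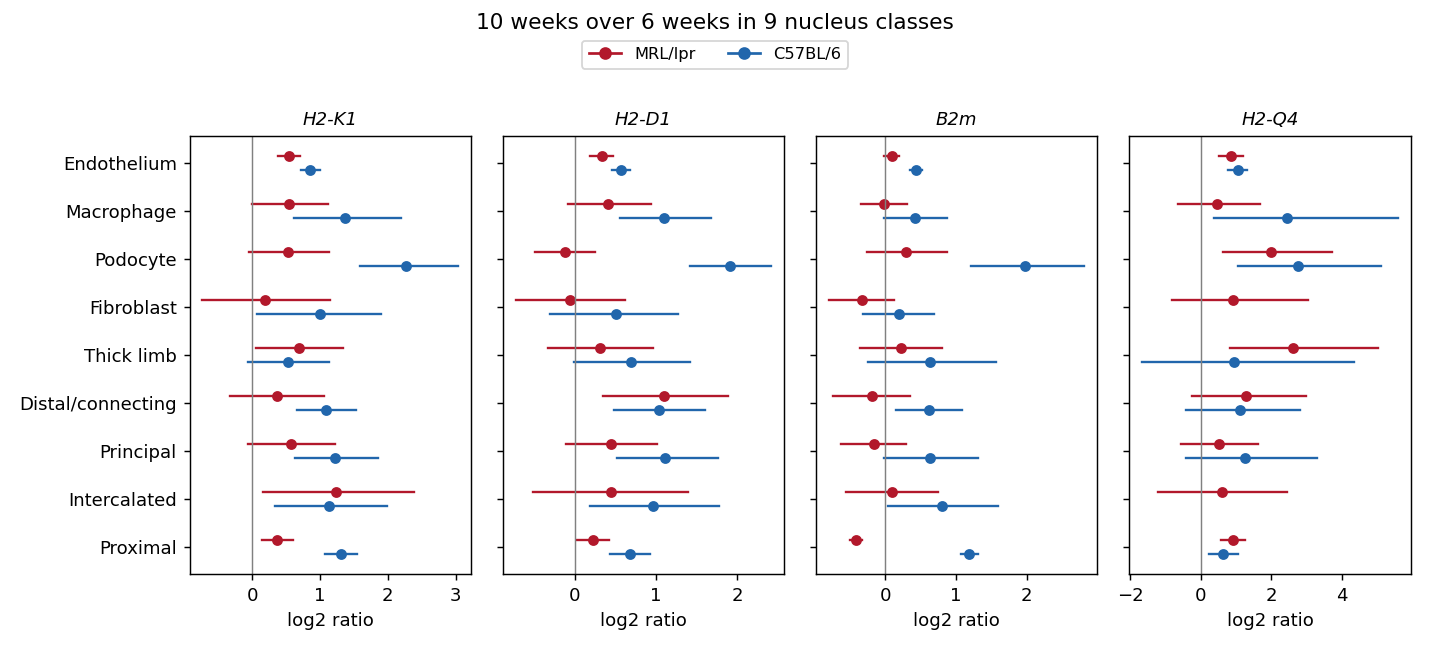
Log2 ratio of 10 over 6 weeks in 9 nucleus classes in MRL/lpr and C57BL/6, with 95% intervals for counting error only; a class with too few UMIs has no point, and the horizontal scales differ between panels. All points of H2-K1 lie above 0, and those of B2m in the proximal tubule lie on opposite sides of 0 in the strains.

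Genes that load class I molecules with peptides were compared in the same nuclei. Of the 13 genes of that list, compared in the proximal tubule, 7 had a higher level in MRL/lpr at both ages, 0 had a lower one and 6 changed sign, and the median log2 ratio was 0.40 at 6 weeks and 0.54 at 10 weeks. Of all genes compared in that class, 32.1% had a higher level in MRL/lpr at both ages and 28.4% a lower one. At least 2-fold higher at both ages, as were 2.46% of all genes there, were Tap2, a subunit of the peptide transporter, and Psmb8, an immunoproteasome subunit. Tap2 had 30.2 CPM in MRL/lpr and 7.01 CPM in C57BL/6 at 6 weeks, and 39.6 CPM in MRL/lpr and 10.0 CPM in C57BL/6 at 10 weeks. Psmb8 had log2 ratios of 1.45 (0.09 to 3.05) at 6 weeks and 1.56 (0.56 to 2.67) at 10 weeks. Its UMIs were 21 in MRL/lpr against 6 in C57BL/6 at 6 weeks, and 39 against 11 at 10 weeks. In endothelium Psmb8 stood at 141 CPM in MRL/lpr and 106 CPM in C57BL/6 at 6 weeks, and 197 and 205 CPM at 10 weeks. The part of free RNA in its proximal tubule level was not tested. The most abundant of the list, the chaperones Canx and Calr, had log2 ratios of 0.13 and 0.54 at 6 weeks and −0.04 and −0.47 at 10 weeks.

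Of 13 regulators of class I transcription in that class, 6 had a higher level in MRL/lpr at both ages, 1 a lower one and 6 changed sign. Nlrc5, the class I transactivator, and Irf1, an interferon-induced factor, were at least 2-fold higher at both ages. Nlrc5 stood at 8.56 CPM in MRL/lpr and 2.13 CPM in C57BL/6 at 6 weeks, and 18.4 CPM in MRL/lpr and 3.34 CPM in C57BL/6 at 10 weeks. Its UMIs were 36 in MRL/lpr against 7 in C57BL/6 at 6 weeks, and 73 against 11 at 10 weeks. The part of free RNA in these low levels was not tested. Irf1 had log2 ratios of 1.98 and 1.94. Jak1 and Irf2, the most abundant of the list, had 0.12 and 0.08 at 6 weeks and 0.57 and −0.17 at 10 weeks. The median log2 ratio of the list was 0.09 at 6 weeks and 0.46 at 10 weeks. In the same class at 10 weeks H2-K1 had the lower level in MRL/lpr and H2-D1 a log2 ratio near 0, while H2-Q4 had 0.39 (0.06 to 0.72), H2-T22 0.73 and H2-T23 0.65 (0.18 to 1.14). At 6 weeks H2-Q4 had 0.11 (−0.31 to 0.55) and H2-T23 0.25 (−0.26 to 0.78).

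Of 20 other class I and class I-like genes, 16 were found by symbol in the count matrices. H2-Q8, H2-Q9, H2-L and H2-T9 were not among them, and whether their reads were counted under other genes was not tested. Of those found, 2 had enough UMIs to be compared in the proximal tubule. Fcgrt, the neonatal Fc receptor, had 136 CPM in MRL/lpr and 103 CPM in C57BL/6 at 6 weeks, and 97.0 CPM in MRL/lpr and 76.8 CPM in C57BL/6 at 10 weeks. Hfe, a regulator of iron uptake, had log2 ratios of −1.57 (−2.51 to −0.69) at 6 weeks and −0.12 (−1.11 to 0.89) at 10 weeks.

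In endothelium 0 of 13 loading genes and 0 of 10 regulators compared were 2-fold apart at both ages, where the share of all genes was 0.9% higher and 1.21% lower, so that few or none would be called at that share. Of the loading genes 4 had a higher level in MRL/lpr at both ages, 5 a lower one and 4 changed sign; of the regulators 4 were higher, 1 lower and 5 changed sign. Over all endothelial genes compared, 23.7% were higher and 31.4% lower at both ages. Nlrc5 there had 117 CPM in MRL/lpr and 78.5 CPM in C57BL/6 at 6 weeks, and 202 CPM in MRL/lpr and 67.3 CPM in C57BL/6 at 10 weeks.

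Within the proximal tubule of MRL/lpr, H2-K1, H2-Q4 and B2m were higher in nuclei that also held UMIs of 2 or more loading genes, chaperones and Tapbpl not counted, a split added after the data were seen. Such nuclei numbered 58 of 5118 in MRL/lpr and 15 of 3746 in C57BL/6 at 6 weeks, and 67 of 5233 in MRL/lpr and 21 of 3970 in C57BL/6 at 10 weeks. In MRL/lpr at 10 weeks H2-K1 stood at 506 CPM (339 to 727) with these genes and 81.3 CPM (72.6 to 90.8) without, 6.22-fold (4.10 to 9.11). In MRL/lpr at 6 weeks it was 3.51-fold (1.85 to 6.11), and in C57BL/6 at 10 weeks 2.80-fold (1.44 to 4.93). C57BL/6 at 6 weeks had 1 UMI of H2-K1 in its 15 nuclei, too few for a comparison. Loading genes and members are both higher in endothelium. In MRL/lpr at 10 weeks Tap2 stood at 382 CPM there and 39.6 CPM in the proximal tubule, and H2-K1 was 43.7-fold higher. The part of free RNA and of remaining doublets in the folds of this split was not tested.

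H2-Q4 and B2m moved with H2-K1 in these nuclei of MRL/lpr. H2-Q4 was 5.69-fold higher at 6 weeks (2.39 to 11.6) and 6.03-fold at 10 weeks (3.38 to 10.1), and B2m 2.44-fold (1.96 to 3.01) and 2.11-fold (1.61 to 2.73). H2-D1 was 2.31-fold higher at 6 weeks (1.18 to 4.08) and 2.28-fold at 10 weeks (1.24 to 3.87). Nuclei with these genes were deeper, with medians of 894 UMIs against 777 without them in MRL/lpr at 6 weeks, and 841 against 738 at 10 weeks. The part of depth in these folds was not tested. With 1 or more of these genes as the split, the fold of H2-K1 was 1.58 (1.16 to 2.11) in MRL/lpr and 1.14 (0.72 to 1.75) in C57BL/6 at 6 weeks, and 2.47 (1.94 to 3.13) in MRL/lpr and 1.03 (0.76 to 1.36) in C57BL/6 at 10 weeks. Split by a UMI of any of the 13 loading genes, where the chaperones dominate, the fold of H2-K1 was 1.08 in MRL/lpr and 1.13 in C57BL/6 at 6 weeks, and 1.90 in MRL/lpr and 1.16 in C57BL/6 at 10 weeks. Between endothelial nuclei with and without 2 or more loading genes, MRL/lpr at 6 weeks had folds of 1.00 (0.79 to 1.25) for H2-K1, 1.28 (1.07 to 1.52) for H2-D1, 1.45 (1.28 to 1.64) for B2m and 1.46 (1.03 to 2.02) for H2-T23. In MRL/lpr at 10 weeks these were 0.84, 0.95, 0.94 and 0.98, each with 1 inside its interval. C57BL/6 at 10 weeks had 0.78 (0.62 to 0.97) for H2-K1.

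**Figure D5:**
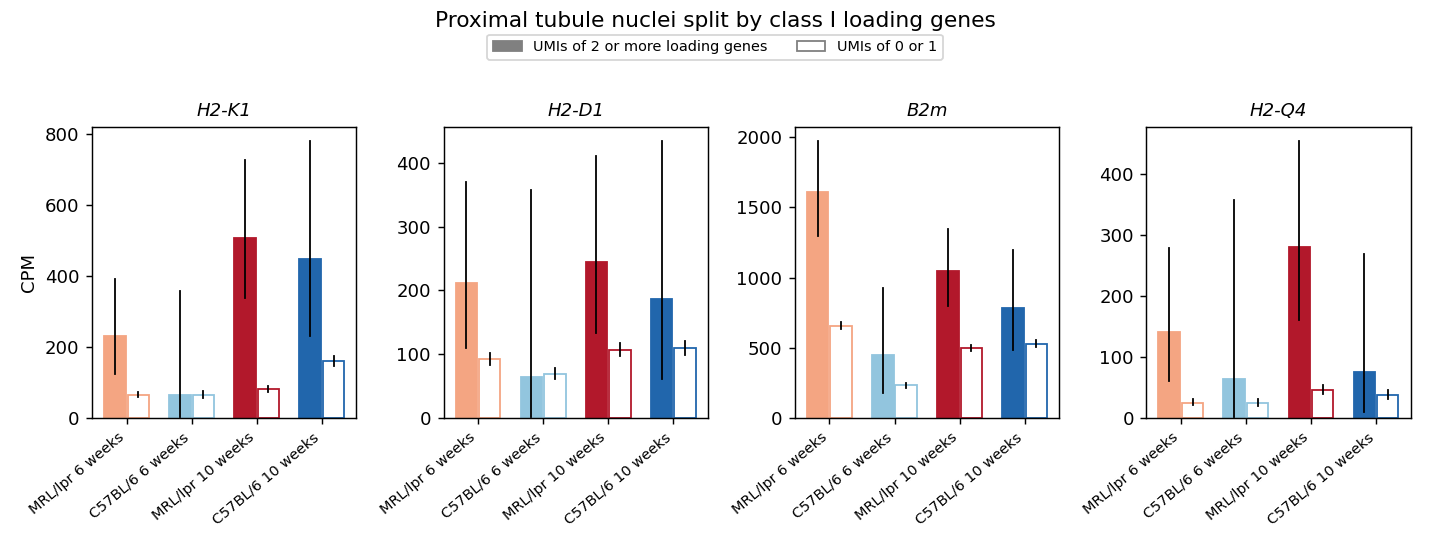
Level of H2-K1, H2-D1, B2m and H2-Q4 in proximal tubule nuclei with UMIs of 2 or more loading genes (filled) and with 0 or 1 (open), in CPM, with exact 95% intervals; 1 library per pair of bars. Filled bars exceed open ones in the 2 MRL/lpr libraries, for H2-K1 with 506 against 81.3 CPM at 10 weeks. They do so in C57BL/6 at 10 weeks too, where the interval of the fold lay above 1 for H2-K1 only.

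Likeness across 28 points, 7 classes in 4 libraries, was taken as Pearson's r of log2(CPM + 10) over 8559 genes, as a description: points of a library share its depth and free RNA. H2-K1 was most like H2-D1 (r = 0.97), followed by Zbtb46, H2-Q4, Rbms1 and Vamp5. B2m was most like Cped1 (r = 0.94), H2-Q4, Zeb1, Ifnar2 and Lims2. H2-Q7 was most like H2-Q6 (r = 0.93), then Olfr1033, mt-Cytb, mt-Nd4 and Nsf. Its r with H2-K1 was 0.59.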

How the data were processed

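Kidney nuclei of 4 libraries were sequenced from their RNA's 3′ ends after poly-dT priming, per the labels' protocols. The authors deposited UMI counts per gene and barcode. Cell Ranger 5.0.0 wrote the matrices per the file headers, while the submitters' processing notes name version 3.1.0. The sources used here do not give the genome build, whether introns were counted or how barcodes were called. The libraries held 6466973 to 7660682 UMIs.

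From these counts, barcodes with at least 200 genes and at most 10% mitochondrial UMIs were kept, and doublets marked by Scrublet (scanpy 1.11.5, expected rate 0.8% per 1000 barcodes) were left out, 702 in MRL/lpr against 863 in C57BL/6 at 6 weeks, and 473 against 751 at 10 weeks. In MRL/lpr 6 weeks no automatic threshold was found and the highest scores at the expected rate were taken. Free RNA was not removed. A nucleus took the class with most distinct markers seen, at least 2, and ties stayed unassigned. Proximal tubule nuclei with 2 or more markers of another class were set aside. UMIs were summed per class and library and scaled to CPM. Levels have exact Poisson intervals, shares exact binomial (Clopper-Pearson) intervals, and ratios the conditional exact interval (scipy 1.17.1). A count of 0 was set at 3 UMIs in a ratio, and no ratio was formed where both counts were at or under 3. The background to the members is made of the genes that reach 50 UMIs in a class, summed over libraries. PCR duplicates are removed by UMIs, but intervals cover counting error only.

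The members, the gene lists and the class rule were chosen with earlier results of these data known. Of the lists, the genes named are those at least 2-fold apart at both ages in the proximal tubule and the 2 of each list with most UMIs. Computation of ratios and the 2-fold rule was tested on simulated data. Promoter sequences came from RefSeq, where 8 of 8 members matched. Alternatives changed the doublet filter, the minimum of genes, UMIs or markers, the scaling, the nuclei with proximal tubule markers and the summing of Q genes.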

Additional observations from a re-analysis of the deposited data

Results flagged for a closer look

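H2-K1 in podocytes had strain ratios of opposite sign at the 2 ages: MRL/lpr over C57BL/6 gave a log2 ratio of 1.33 at 6 weeks and −0.41 at 10 weeks. The difference between the ages was not tested, since each value compares 1 library with 1 library.

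B2m in the proximal tubule had age ratios of opposite sign in the strains: 10 over 6 weeks gave a log2 ratio of −0.41 in MRL/lpr and 1.19 in C57BL/6. This difference was not tested either, for the same reason.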

How the results depend on the processing

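No paired analysis was possible because each group has 1 library. Without the doublet filter and with at least 3 markers per class, 56 of 56 main results stayed within the interval of the value given. With size factors by the median of ratios, and with CPM that leaves out mitochondrial and ribosomal protein genes, 50 of 50 did so.

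The minimum of 500 genes per nucleus moved most, 32 of 55, and leaves few nuclei outside the proximal tubule: in endothelium 85 in MRL/lpr and 30 in C57BL/6 at 6 weeks, and 21 and 33 at 10 weeks. With it, podocyte log2 strain ratios were 2.29 for H2-K1, 0.62 for H2-D1, 3.03 for B2m, −1.88 for H2-Q6 and −3.54 for H2-Q7 at 6 weeks. At 10 weeks they were −1.13 for H2-K1, −0.98 for H2-D1, −4.13 for H2-Q6 and −5.55 for H2-Q7. Podocyte age ratios were −0.35 for B2m in MRL/lpr and 3.60 for H2-K1 in C57BL/6. Endothelial strain ratios were 0.0074 for H2-K1, 0.40 for H2-D1, 0.16 for B2m and 0.21 for H2-T23 at 6 weeks, and 0.59, 0.57, 0.73 and 1.97 at 10 weeks, where H2-Q6 had −0.73 and H2-Q7 −0.89. Endothelial age ratios were 0.90 for H2-K1, 0.50 for H2-D1 and 0.64 for B2m in MRL/lpr, and 0.32, 0.33 and 0.062 in C57BL/6. In C57BL/6 the age ratios of H2-Q4 (−0.57), H2-Q7 (−0.25) and H2-T23 (−0.44) turned their sign. Members lower in MRL/lpr numbered 1 in the proximal tubule, 0 in endothelium and 1 in podocytes, and members higher with age 3 in endothelium and 1 in podocytes. Fewer nuclei enter these values, and no other cause was tested.

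Leaving out nuclei with 3 or more proximal tubule markers gave endothelial strain ratios at 6 weeks of 1.03 for H2-K1, 0.64 for H2-D1, 0.81 for B2m and 1.47 for H2-T23. That of H2-Q6 was −2.89, with its 0 set at 3 UMIs. MRL/lpr age ratios became 0.13 for H2-K1, 0.0034 for H2-D1 and −0.26 for B2m, and 4 members were higher with age. With the same minimum of 308 UMIs in all libraries, endothelial strain ratios at 10 weeks were 0.22 for B2m and −3.66 for H2-Q6, its 0 set at 3 UMIs. Endothelial age ratios were then 0.19 for H2-D1 in MRL/lpr and 0.30 for B2m in C57BL/6. Summing H2-Q4, H2-Q6 and H2-Q7 gave strain ratios of −0.45 and −0.21 in the proximal tubule and −0.65 and −0.98 in endothelium at 6 and 10 weeks, and −3.90 in podocytes at 10 weeks. The share of all genes at least 2-fold higher in MRL/lpr endothelium was 1.87% with at least 20 UMIs and 1.42% with no minimum. Thinned nuclei moved 23 of 24 shares. The cause of these shifts was not tested.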

Other observations

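Further class I genes, chosen after their values were seen, also differed between strains in few UMIs. H2-M2, a class I gene of the M region, had 7 UMIs in MRL/lpr and 0 in C57BL/6 over all kept nuclei at 6 weeks, and 30 in MRL/lpr and 0 in C57BL/6 at 10 weeks. Of these, 4 and 19 lay in the 43 and 112 macrophage nuclei of MRL/lpr at 6 and 10 weeks. H2-Q5 had 0 UMIs in MRL/lpr and 6 in C57BL/6 at each age, and H2-Q2 had 0 in MRL/lpr and 5 in C57BL/6 at 6 weeks and 1 in MRL/lpr and 12 in C57BL/6 at 10 weeks. H2-Q10 lay the other way, with 20 UMIs in MRL/lpr and 3 in C57BL/6 at 6 weeks, and 16 in MRL/lpr and 7 in C57BL/6 at 10 weeks.

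T and NK cell nuclei were too few to compare. The 18 in C57BL/6 at 10 weeks held 9 UMIs of H2-Q7 and 39 of B2m, and the 7 in MRL/lpr at 10 weeks held 0 of H2-Q7 and 4 of B2m.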
